A study of Mus musculus with 4 samples.

Results

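Hand1, Hand2, Tbx2, Tbx20, Isl1, Foxf1a, Nkx2-5, Actc1, Acta2 and Hapln1 are 10 genes of lateral plate and cardiac mesoderm, and all 10 were found by symbol among the 37620 genes of the raw count table and among the 15462 genes of the normalized table. They were chosen by name with the sequencing values of these libraries already known, including their counts in F/A, so their levels and ratios below are descriptions and carry no test. RNA came from R1 mouse embryonic stem cells (ESCs) of strain 129/Sv, either wild type (WT) or with Cripto (gene Tdgf1) knocked out (Cripto KO). Each genotype was grown in serum/LIF, which maintains ESCs, or for 6 days with the factors bFGF and Activin A (F/A, with 20 ng per ml of Activin A), under which ESCs become epiblast stem cells (EpiSCs). Each of the 4 cultures gave 1 library, so no value has a replicate error, no p-value was computed, and differences are between single cultures. The study worked with more than 1 Cripto KO clone, and the labels do not say which one was sequenced.

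The lateral plate is the mesoderm that lies outside the somites and the kidney precursors, and it forms the heart, the smooth muscle of the gut and the great vessels, and the body wall. In the embryo its cells leave the primitive streak, switch off streak factors such as T and Eomes, and switch on a set of DNA-binding factors under the influence of bone morphogenetic protein (BMP) signals. Cripto is a co-receptor for Nodal, the TGF-beta family ligand that, like Activin, acts through Smad2 and Smad3. The 7 transcription factors among the members fall into the families of basic helix-loop-helix factors (Hand1, Hand2), T-box factors (Tbx2, Tbx20), and homeodomain and forkhead factors (Isl1, Nkx2-5, Foxf1a). The 3 others are the cardiac actin Actc1, the smooth muscle actin Acta2 and the hyaluronan link protein Hapln1.

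The libraries held between 15230856 and 17315442 counts on genes. Tdgf1, the targeted gene, had 18714 raw counts in serum/LIF WT, 945 in serum/LIF Cripto KO, 1572 with F/A in WT and 86 with F/A in Cripto KO, so the libraries labelled Cripto KO were the lower ones in both media. The ESC factor Esrrb had 15699 and 16258 raw counts in serum/LIF against 13 and 8 in F/A, and the EpiSC marker Fgf5 had 3 and 1 against 2206 and 394, each time WT first. The F/A Cripto KO library stood apart in that only 3 of its 18700 genes with counts had an odd count (0.0160%), against 53.1% to 53.6% in the others. Its counts were therefore divided by 2 wherever a counting interval was computed, and its floor was set at 6 counts in place of 3. A gene was called between 2 libraries when the ratio of the deposited quantile-normalized values was at least 2 (values of 0 set to 0.5) and the 95% Clopper-Pearson interval of the ratio of raw counts, scaled by library totals, did not hold 1. These intervals cover counting error only, not the spread between cultures. In bulk RNA, fewer cells of a type and less RNA per cell cannot be told apart.

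The members were near or at the floor in serum/LIF and were detected in both F/A libraries. In serum/LIF, 8 of the 10 had at most 10 raw counts in both genotypes, and 3 of these (Hand2, Actc1 and Hapln1) had 0 in both, which allows a level of up to 0.173 counts per library total of 1000000 (cpm) in WT and 0.184 cpm in Cripto KO. Their raw counts in F/A WT ran from 22 to 2854 with a median of 138.5, and those in F/A Cripto KO from 138 to 5906 with a median of 542. The summed level of the 10 genes was 5.83 cpm in serum/LIF WT, 6.46 in serum/LIF Cripto KO, 309 with F/A in WT and 708 with F/A in Cripto KO. Acta2 alone made up 60.6% of the sum in the WT library of F/A and 53.0% in the Cripto KO library, and without it the sums were 122 and 333 cpm.

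**Figure D1:**
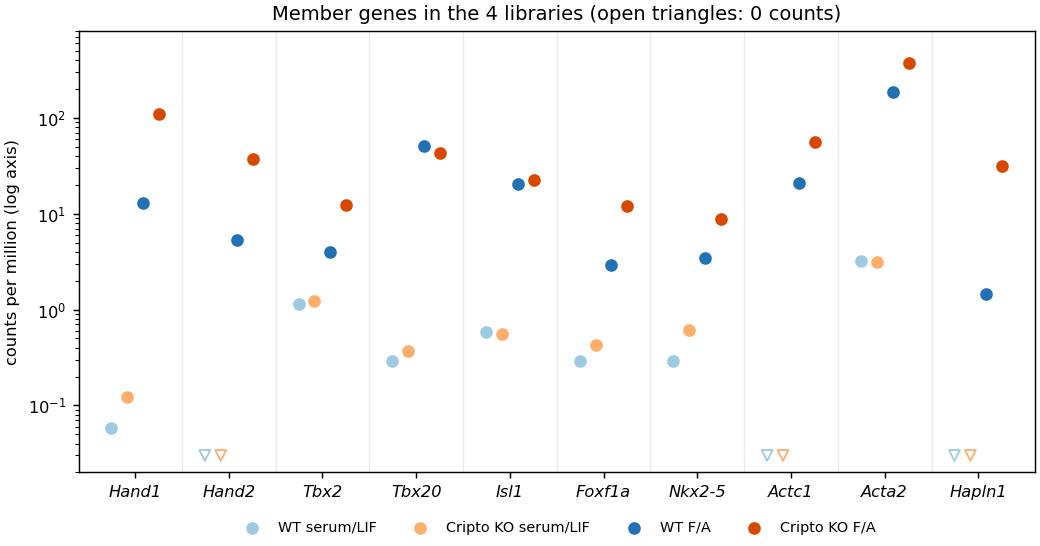
Level of each member gene in cpm on a log axis, with 1 point for each of the 4 libraries and open triangles at the bottom for 0 counts. Every F/A point lies above both serum/LIF points of its gene, and F/A Cripto KO lies above F/A WT for each gene except Tbx20.

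Hand1 and Hand2 were barely detected in serum/LIF and had their highest level in F/A Cripto KO. They encode related basic helix-loop-helix factors of the heart and lateral plate, and Hand1 is also needed in trophoblast giant cells. Hand1 (ENSMUSG00000037335, build NCBIM37, chromosome 11, 57642207 to 57646320, minus strand) had 1 raw count in serum/LIF WT, 2 in serum/LIF Cripto KO, 196 with F/A in WT and 1730 with F/A in Cripto KO. Within F/A it was 8.88-fold higher in Cripto KO (log2 ratio 3.15, interval 7.31 to 10.02). Hand2 (ENSMUSG00000038193, chromosome 8, 59799780 to 59803314, plus strand) had 0, 0, 81 and 584 raw counts in the same order of libraries. Both genes thus had 0 to 2 counts in serum/LIF, a middle level in F/A WT and a higher one in F/A Cripto KO. The F/A ratio of Hand2 was 6.96 (log2 ratio 2.8, interval 5.44 to 9.04), and its interval overlapped that of Hand1. Of all genes in the normalized table, 0.407% had a higher log2 ratio than Hand1 and 0.543% a higher one than Hand2.

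The T-box genes did not move alike. Tbx2 and Tbx20 both encode repressors of the developing heart, with Tbx2 known for holding back chamber genes in the atrioventricular canal and Tbx20 for its role in chamber growth. Tbx2 (ENSMUSG00000000093, chromosome 11, 85646053 to 85655450, plus strand) had 20 raw counts in serum/LIF WT, 20 in serum/LIF Cripto KO, 61 with F/A in WT and 196 with F/A in Cripto KO. It had the highest serum/LIF count among the transcription factor members, and its F/A ratio of Cripto KO over WT was 3.14 (log2 ratio 1.65, interval 2.24 to 4.35). Tbx20 (ENSMUSG00000031965, chromosome 9, 24527648 to 24578746, minus strand) had 5, 6, 766 and 668 raw counts in the same order. Tbx20 was thus far above its serum/LIF level in both genotypes, and it was the member with the lowest F/A ratio, 0.858 (log2 ratio -0.22, interval 0.740 to 0.961). That ratio was not called, since it lies within 2-fold, although its counting interval leaves out 1. In F/A WT it had more counts than the other 6 transcription factors, whereas in F/A Cripto KO it came behind Hand1.

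Isl1, Nkx2-5 and Foxf1a also split. Isl1 marks progenitors of the second heart field, Nkx2-5 is an early homeodomain factor of cardiac progenitors, and Foxf1a is a forkhead factor of splanchnic mesoderm, the layer around the gut. Isl1 (ENSMUSG00000042258, chromosome 13, 117088478 to 117099896, minus strand) had 10 raw counts in serum/LIF WT, 9 in serum/LIF Cripto KO, 314 with F/A in WT and 350 with F/A in Cripto KO. Both F/A libraries were far above both serum/LIF libraries, and the F/A genotypes had a ratio of 1.08 (log2 ratio 0.11, interval 0.891 to 1.30), so a difference was not detectable at this depth. Nkx2-5 (ENSMUSG00000015579, chromosome 17, 26975609 to 26978510, minus strand) had 5, 10, 52 and 138 raw counts, with a ratio in F/A of 2.57 (log2 ratio 1.36, interval 1.77 to 3.75). Foxf1a (ENSMUSG00000042812, chromosome 8, 123608286 to 123610851, plus strand) had 5, 7, 44 and 190 raw counts, with a ratio in F/A of 4.11 (log2 ratio 2.04, interval 2.89 to 6.12). Both were lowest in the serum/LIF libraries and highest in F/A Cripto KO, as Hand1, Hand2 and Tbx2 were. In all, 5 of the 7 transcription factors were called higher in F/A Cripto KO and Tbx20 and Isl1 were not called. Of all genes, 2.93% were called higher there, and since the factors were chosen with these values known, nothing is read from the count. A gene model on the same strand (Gm20388) overlaps Foxf1a, and it had 0 counts in every library.

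Acta2 was the most abundant member in both F/A libraries, and both actins had their highest level in F/A Cripto KO. Actc1 encodes the alpha actin of heart muscle, which embryonic skeletal muscle also makes, and Acta2 encodes the alpha actin of smooth muscle, which myofibroblasts and early cardiomyocytes make too. Actc1 (ENSMUSG00000068614, chromosome 2, 113873018 to 113879284, minus strand) had 0 raw counts in both serum/LIF libraries, 317 with F/A in WT and 880 with F/A in Cripto KO. Its F/A ratio of Cripto KO over WT was 2.68 (log2 ratio 1.42, interval 2.32 to 3.11). Acta2 (ENSMUSG00000035783, chromosome 19, 34315580 to 34329826, minus strand) had 55, 51, 2854 and 5906 raw counts in serum/LIF WT, serum/LIF Cripto KO, F/A WT and F/A Cripto KO. Both actins were lowest in serum/LIF and highest in F/A Cripto KO, and of the 8 members called in F/A, Acta2 lay nearest to the 2-fold line, with a ratio of 2.05 (log2 ratio 1.03, interval 1.90 to 2.11). Actin genes have similar coding sequences, and 0.404% of the 50-base windows of the Acta2 transcript also occur in another protein-coding gene (Actg1), against 0% for Actc1. A noncoding RNA on the other strand overlaps Actc1 and had at most 2 counts. Whether the counting used strand is not given in the sources used here.

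The stretches upstream of these actin genes are shown because muscle actin promoters are textbook targets of serum response factor (SRF). Whether SRF has a part in the values of the actins was not tested. SRF binds the CArG box, which is CC, then 6 bases that are each A or T, then GG. The sequences are the 250 bases before the RefSeq start (GRCm38.p6, both on the minus strand, printed 5′ to 3′ along the gene), at chr2:114052876-114053125 for Actc1 and chr19:34255374-34255623 for Acta2. Capitals mark each CArG box and each run that differs from one by 1 base in its centre.
Actc1: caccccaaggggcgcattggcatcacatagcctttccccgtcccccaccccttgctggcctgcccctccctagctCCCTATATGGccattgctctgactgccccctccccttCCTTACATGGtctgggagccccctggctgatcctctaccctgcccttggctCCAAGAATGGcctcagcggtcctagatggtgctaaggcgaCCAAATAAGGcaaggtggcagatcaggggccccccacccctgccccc
Acta2: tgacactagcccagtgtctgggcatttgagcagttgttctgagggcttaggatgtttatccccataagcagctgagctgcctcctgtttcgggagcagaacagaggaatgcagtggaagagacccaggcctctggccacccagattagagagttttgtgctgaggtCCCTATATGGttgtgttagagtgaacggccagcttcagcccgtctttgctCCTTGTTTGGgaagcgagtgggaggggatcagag

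Actc1 holds 1 full CArG box, CCAAATAAGG, 47 to 38 bases before the start, and 3 runs with 1 other base. Acta2 holds no full box in this window and 2 runs with 1 other base. The run CCCTATATGG is present in both, 175 to 166 bases before the start of Actc1 and 84 to 75 bases before that of Acta2. Of 32851 RefSeq promoter windows of this length, 1.47% hold a full CArG box and 7.24% hold a run with 1 other base. The table had a window for 7 of the 10 members, and Hand2, Tbx20, Isl1, Nkx2-5 and Hapln1 held neither form. The letters GATAA, read on both strands and part of the sites of GATA factors, occur in 22.6% of the windows, and among the members they occur 2 times in Hand2 and once each in Isl1 and Acta2. These matches are descriptions of the letters, and no binding was measured.

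Hapln1 had the largest F/A ratio of the members. It encodes the link protein that ties hyaluronan to versican in the extracellular matrix, including the cardiac jelly of the early heart. Hapln1 (ENSMUSG00000021613, chromosome 13, 89680241 to 89751437, plus strand) had 0 raw counts in serum/LIF WT, 0 in serum/LIF Cripto KO, 22 with F/A in WT and 500 with F/A in Cripto KO. It was the member with the fewest counts in F/A WT and had more counts than 4 others in F/A Cripto KO. Its F/A ratio was 21.2 (log2 ratio 4.41, interval 14.2 to 35.7), and 0.129% of all genes had a higher one.

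Read together, 8 of the 10 members were called higher in Cripto KO than in WT within F/A and 0 were called lower. Of all genes in that comparison, 2.93% were called higher and 4.08% lower. These counts enter the choice of the members, so nothing is read from the difference between them and the share over all genes. The median log2 ratio of the members was 1.54, and that of all genes was 0. The called ratios spanned 2.05 for Acta2 to 21.2 for Hapln1. No member was called between the genotypes in serum/LIF, where 0 of the 10 members passed while 1.36% of all genes were called higher and 1.97% lower. At these counts serum/LIF intervals are wide. The ratio of Nkx2-5, from 5 counts in WT and 10 in Cripto KO, was 2.60 with an interval of 0.663 to 7.94. For Acta2, the member with most counts there, the ratio was 1.12 with an interval of 0.661 to 1.47, so a difference of 2-fold lies outside its counting interval.

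**Figure D2:**
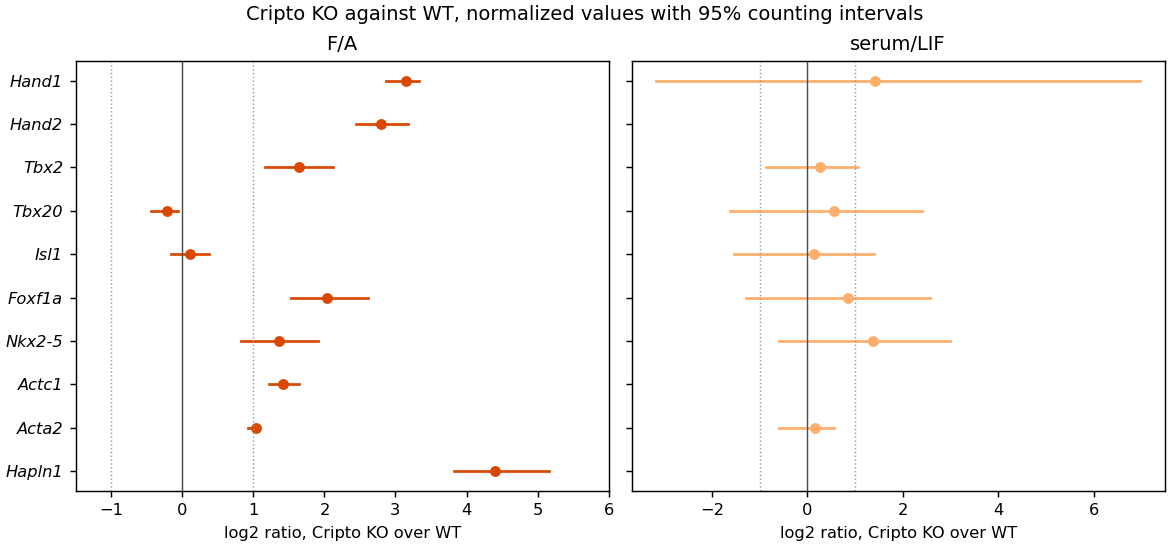
Log2 ratio of Cripto KO over WT for each member in F/A (left) and in serum/LIF (right), with points for the ratio of normalized values, bars for the 95% counting interval and dotted lines at a 2-fold difference. In F/A, 8 points lie at or beyond 2-fold and Tbx20 and Isl1 lie near 0. In serum/LIF every bar crosses 0, and Hand2, Actc1 and Hapln1 have no point because both libraries had 0 counts.

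The change from serum/LIF to F/A was called higher for 10 of 10 members in WT, where 21.7% of all genes were called higher, and for 10 of 10 in Cripto KO, where 18.8% were. The median log2 ratio was 5.75 in WT and 6.89 in Cripto KO, against -0.07 over all genes in each, and with the 3 genes at 0 in serum/LIF put at their lower bounds it was 5.16 and 6.89. These comparisons share their F/A libraries with the comparison above. Tbx20 had the largest ratio in WT of the members with at least 5 counts in serum/LIF, 208 (interval 74.3 to 538), and in Cripto KO its ratio was 122 (interval 52.3 to 316). Hand1, from 1 and 2 counts, had ratios of 267 (interval 39.5 to 8845) and 889 (interval 247 to 7390). Such low starting counts leave these ratios loosely fixed.

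Acta2 was 62.6-fold higher in F/A in WT (interval 45.2 to 78.5) and 115-fold higher in Cripto KO (interval 90.7 to 161). Isl1 was 41.8-fold higher in WT (interval 19.2 to 75.2) and 41.0-fold higher in Cripto KO (interval 20.7 to 89.3). For Nkx2-5 the ratios were 14.4 (interval 4.75 to 37.9) and 14.3 (interval 7.30 to 31.0). Isl1 and Nkx2-5 therefore had nearly equal ratios in the genotypes, although only Nkx2-5 was called between the F/A libraries, and the serum/LIF count of Nkx2-5 was itself higher in Cripto KO. Foxf1a was 12.3-fold higher in WT (interval 3.98 to 32.3) and 28.1-fold higher in Cripto KO (interval 13.1 to 71.6). The smallest ratios were those of Tbx2, 3.79 in WT (interval 2.06 to 6.07) and 9.92 in Cripto KO (interval 6.21 to 17.3). Against the floor, Actc1 was at least 120-fold higher in WT and at least 303-fold higher in Cripto KO, Hand2 at least 30.7-fold and at least 201-fold, and Hapln1 at least 8.34-fold and at least 172-fold. Of the 7 members with counts in both serum/LIF libraries, 4 had the larger log2 change in Cripto KO and 3 in WT, and the intervals of the genotypes did not overlap for 2 of them, Tbx2 and Acta2. The share of all genes with such intervals apart was not computed, so nothing is read from that count. The difference between the genotypes in this change was not tested.

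**Figure D3:**
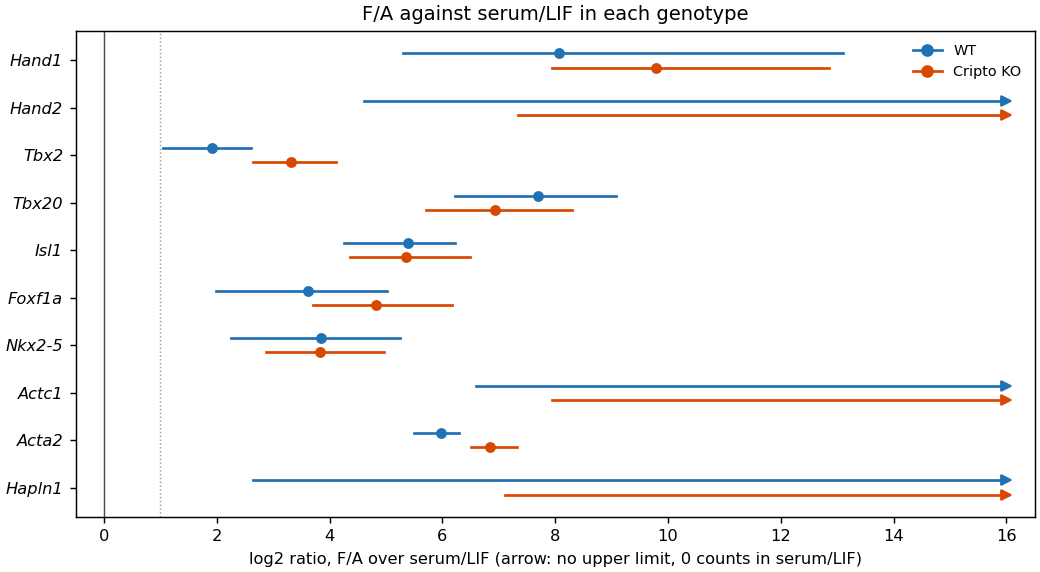
Log2 ratio of F/A over serum/LIF for each member in WT (blue) and Cripto KO (orange), with points for the ratio of normalized values and bars for the 95% counting interval. Bars that end in an arrow start at the lower limit and have no upper limit, since Hand2, Actc1 and Hapln1 had 0 counts in serum/LIF. All bars lie above 0, and the bars of the genotypes are apart for Tbx2 and Acta2.

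Per length of transcript, the order of the members differed between the F/A libraries. Levels here are RPKM, which are cpm divided by the median annotated transcript length in kilobases. The length is a limit for Actc1, with a median of 888 bases and a longest protein-coding transcript of 1473. It is also a limit for Tbx20, with 1792 and 4043 bases, so the places of both genes depend on the length taken. The Poisson intervals below do not cover this choice. In F/A WT the order was led by Acta2 at 105 RPKM, followed by Tbx20 at 28.1, Actc1 at 23.4, Isl1 at 8.16 and Hand1 at 7.13. Foxf1a at 2.53, Hand2 at 2.38, Nkx2-5 at 2.24 and Tbx2 at 1.10 came next, and Hapln1 was last at 0.286. In F/A Cripto KO Acta2 again led at 211 RPKM, followed by Actc1 at 63.0, Hand1 at 60.9, Tbx20 at 23.7 and Hand2 at 16.6. Foxf1a at 10.6, Isl1 at 8.80, Hapln1 at 6.28, Nkx2-5 at 5.75 and Tbx2 at 3.43 closed the order. Hand1 thus stood in the fifth place in WT and in the third in Cripto KO, and Isl1 in the fourth and the seventh. By exact Poisson intervals of the counts, neighbours that were not apart in WT were Tbx20 and Actc1, Isl1 and Hand1, and the run of Foxf1a, Hand2 and Nkx2-5. In Cripto KO they were Actc1 and Hand1, Foxf1a and Isl1, and Hapln1 and Nkx2-5. In serum/LIF the order below Acta2 (1.78 RPKM in WT and 1.76 in Cripto KO) rests on at most 20 counts per gene.

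Other genes known from the same tissues were described from lists that, like the members, were drawn up with results of these libraries known. Among 27 further regulators of the heart and lateral plate, 11 were called higher in Cripto KO than in WT within F/A and 0 lower, with a median log2 ratio of 0.83. The shares over all genes were 2.93% higher and 4.08% lower. Osr1, a zinc-finger factor of lateral and intermediate mesoderm, went from 27 to 352 raw counts between F/A WT and F/A Cripto KO, with a ratio of 12.4 (interval 8.38 to 19.7). Gata5, a GATA factor of the heart, had a ratio of 6.75 (interval 3.50 to 14.1). Foxc2 at 5.72 (interval 4.72 to 6.75) and Msx1, a BMP-responsive homeobox gene, at 5.11 (interval 4.27 to 6.06) were also called. The most abundant of the list, Tbx3, Gata4 and Foxc1, had ratios of 1.78, 1.61 and 1.51 and were not called, as Tbx20 and Isl1 were not among the members. In F/A against serum/LIF, 21 of the 27 were called higher in WT and 24 in Cripto KO, against 21.7% and 18.8% of all genes, and 1 was called lower in each.

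Some genes of the contractile machinery were called beside the actins. Of 15 sarcomere and cardiac muscle genes, 5 were called higher in F/A Cripto KO, where 2.93% of all genes were, and 0 lower, with a median log2 ratio of 0.26. Myl4, the atrial light chain of myosin, went from 23 to 150 raw counts, with a ratio of 6.29 (interval 3.91 to 10.6). Tnnt2, the cardiac troponin T, had 37 and 192, with a ratio of 5.0 (interval 3.40 to 7.55), and Tnni1 had 30 and 132. Mybpc3 rested on 2 and 12 counts (ratio 6.44, interval 1.04 to 58.8). Myh7, the slow myosin heavy chain, Tpm1 and Atp2a2 were not called, at ratios of 1.11, 1.34 and 0.918. Of 16 smooth muscle and actin cytoskeleton genes, Des at 3.52 (interval 3.11 to 4.02) and Myl9 at 2.31 (interval 2.02 to 2.65) were called higher, and Tagln, Cald1 and Cyr61 had ratios of 1.44, 0.870 and 0.904. The other actins gave a measure for Actc1 and Acta2 within the same gene family. Acta1, the skeletal muscle actin, had 3, 6, 1222 and 1414 raw counts in the order used above, so it was as low as the members in serum/LIF, and its F/A ratio was 1.14. Actb and Actg1, the actins of all cells, had F/A ratios of 1.19 and 1.14, and Actg2 had 0 counts in both F/A libraries.

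Genes for partners of the remaining members are few, and at a share of 2.93% called higher and 4.08% called lower over all genes nothing is read from their counts. In the hyaluronan matrix to which Hapln1 belongs, 1 of 8 genes was called, Hapln3 at 4.86, while versican (Vcan) had a ratio of 1.09 and the hyaluronan synthase Has2 one of 0.910. None of 5 genes for protein partners of the member factors was called. Tcf3 and Tcf12, which pair with Hand proteins, had ratios of 1.21 and 0.903, and Ldb1, which binds Isl1, had 1.32.

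Genes of signals and neighbouring tissues were called in both directions between the F/A libraries, where 2.93% of all genes were called higher and 4.08% lower. Of 20 BMP signalling genes, 7 were called higher in F/A Cripto KO and 0 lower, with a median log2 ratio of 0.04. These included the targets Id2 at 4.11, Id3 at 2.49 and the inhibitor Smad6 at 2.50, together with Smad9 at 3.96. In contrast, Smad4, Smad5 and the receptor Bmpr1a had ratios of 0.953, 0.763 and 0.982. Id2 was also called higher in Cripto KO in serum/LIF, with 291 raw counts in WT and 921 in Cripto KO, as the only gene of this list. Of 11 early mesoderm genes, 0 were called higher and 4 lower, namely Eomes at 0.205, Mixl1 at 0.325, Lefty2 at 0.403 and Tbx6 at 0.481, while T had a ratio of 0.598. Of 8 paraxial and intermediate mesoderm genes, 4 were called higher and 1 lower. Meox1, a somite gene, had a ratio of 13.1, Tcf15 one of 3.92 and Foxd1 one of 2.07. Pax8 had 0 counts in the WT library and 16 in the Cripto KO library (at least 5.16-fold higher), and Lhx1 was called lower at 0.163. The early mesoderm list as a whole was mixed, with 5 log2 ratios above 0 and 6 below. Kdr had 417 and 738 raw counts in F/A WT and F/A Cripto KO and Pdgfra had 812 and 1452, and neither was called. Only the 4 called early mesoderm genes, not the whole list, were called lower in the library in which 8 members were called higher.

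**Figure D4:**
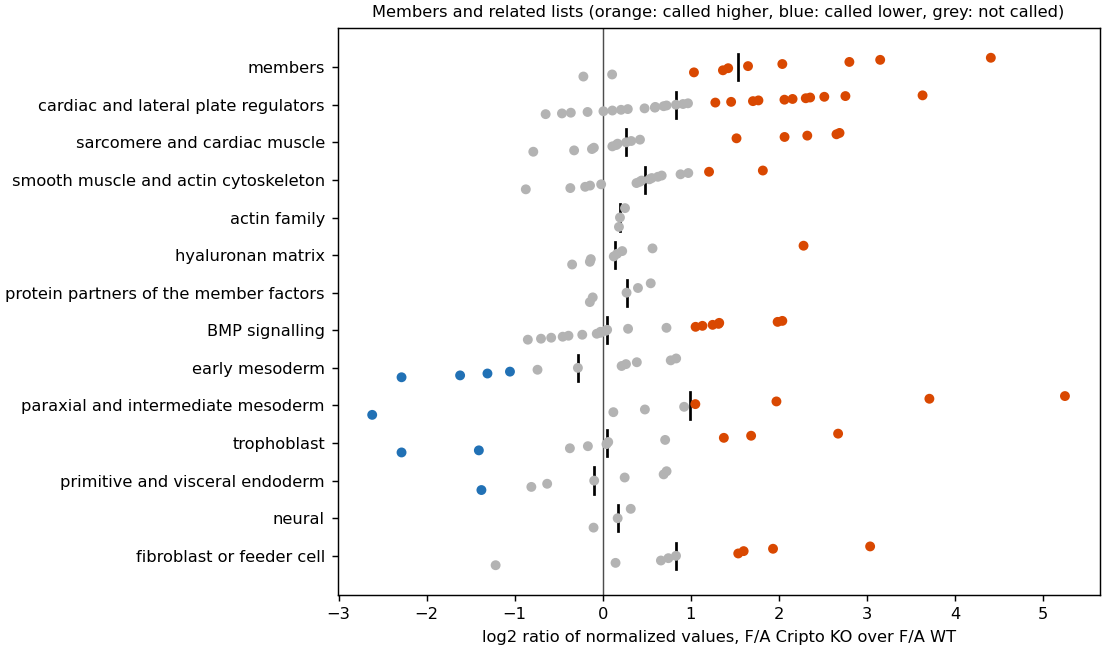
Log2 ratio of F/A Cripto KO over F/A WT for the members and for the genes of related lists, with 1 point a gene, a black line at the median of each list, and orange, blue and grey for genes called higher, called lower and not called. Values of 0 were set to 0.5, which fixes the place of Pax8 at the far right. The median is 1.54 for the members, 0.83 for the other cardiac and lateral plate regulators and -0.28 for early mesoderm.

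Some members also belong to other cell types, and the markers of those types were counted over their whole lists. Between the F/A libraries, 2.93% of all genes were called higher in Cripto KO and 4.08% lower. For trophoblast, which expresses Hand1, 3 of 10 markers were called higher and 2 lower in F/A Cripto KO, and the summed level was 336 cpm with F/A in WT and 256 with F/A in Cripto KO. Eomes, which is also in the early mesoderm list, carried that order, and without it the sums were 207 and 229 cpm. Cdx2, which posterior mesoderm expresses as well, had a ratio of 6.37 (interval 5.02 to 7.89) and Gata2 one of 3.21, whereas Eomes and Ascl2 (0.377) were called lower. Plac1 was also called higher, with 0 raw counts in both serum/LIF libraries, 19 with F/A in WT and 48 with F/A in Cripto KO. Gata3 had 238 and 252 raw counts in F/A WT and F/A Cripto KO and Krt7 had 769 and 802, and neither was called. The placental markers Tpbpa and Prl3d1 were at 0 in all 4 libraries. Elf5 had 2 raw counts with F/A in WT and none with F/A in Cripto KO. For fibroblasts or feeder cells, which express Acta2, 4 of 9 markers were called higher and 0 lower, and the summed level was 93.2 cpm with F/A in WT and 247 with F/A in Cripto KO, against 156 and 166 in serum/LIF. Col3a1 went from 72 to 610 raw counts (ratio 8.20), Pdgfrb had a ratio of 3.03 and Col1a1 one of 2.90, all of which mesenchyme also expresses. The fibroblast gene Dcn was also called higher, from 5 raw counts in F/A WT to 18 in F/A Cripto KO, while serum/LIF WT had 328. Thy1 had 18 and 28 raw counts in F/A WT and F/A Cripto KO, and Lox had 22 and 8. Neither of these was called, and serum/LIF WT had 466 and 275. No primitive and visceral endoderm marker of 7 was called higher and 1 (Sox17) was called lower, Afp was at 0 in all libraries, and none of 3 neural markers was called. The EpiSC list had 0 of 10 called higher and 5 lower, and the ESC list 0 of 8 and 1. The part of these cell types in the values of the members was not tested.

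The median profile of the members over the 4 libraries was nearly level between the serum/LIF libraries and was highest in F/A Cripto KO. Among 10804 other genes with at least 200 raw counts in their highest library, the 5 with the smallest Euclidean distance to it (log2 of normalized value plus 5, centred over the 4 libraries) were Hoxb1 (0.351), Rbm24 (0.508), Aldh1a2 (0.535), Thsd4 (0.550) and Hoxb3os (0.609). Hoxb1 had 1, 1, 72 and 374 raw counts in serum/LIF WT, serum/LIF Cripto KO, F/A WT and F/A Cripto KO, and Aldh1a2, an enzyme of retinoic acid synthesis, had 27, 12, 319 and 1080. Hand2 lay nearest to the median profile among the members themselves, at 0.843, and Tbx2 farthest, at 2.67. Likeness over 4 libraries is a description of these values.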

How the data were processed

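RNA of 4 cultures was sequenced as paired-end libraries, 1 per group. The authors aligned reads to mm9 (NCBIM37) with TopHat2 2.0.13, counted them per gene with HTSeq 0.6.1p1 on Ensembl 67, and deposited raw counts. A second table that the authors deposited holds a signal, the quantile-normalized counts of genes kept by a filter at 1 cpm. Quantile normalization of the raw counts gave 100% of these values within 0.01. Quantile normalization forces equal distributions, so ratios are relative to all genes.

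Log2 ratios, cpm, RPKM and Clopper-Pearson intervals were computed with Python 3.11.15, numpy 2.4.6, pandas 2.3.3 and scipy 1.17.1. The calling was tested on simulated Poisson counts without spread between cultures, which checks the code and counting error only. Symbols, coordinates and lengths came from an NCBIM37 annotation (Ensembl 65). Library totals of 15230856 to 17315442 leave wide intervals for genes under about 20 counts. All members were named, with the 3 most abundant and up to 4 called genes of each list by largest log2 ratio, and the 5 nearest profiles. Plac1, Gata3, Krt7, Kdr and Pdgfra were named after their values were seen. So were the genes given only as markers at or near 0 (Tpbpa, Prl3d1, Afp, Elf5, Actg2, Thy1 and Lox). Members and lists were chosen with earlier results of these data known. Alternatives used TMM of edgeR 4.0.16 and size factors of DESeq2 1.42.0 (R 4.3.3), other scalings and other thresholds. The probability of the authors' calling method was not used here. Figures used matplotlib 3.10.9.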

Additional observations from a re-analysis of the deposited data

Results flagged for a closer look

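Genes with counts above the floor in all 4 libraries were looked at for opposite directions of the genotype difference in F/A and in serum/LIF, taking members at any size and other named genes only where both differences were called. This gave 4 genes, and in none was the difference between the media tested, since each medium had 1 library per genotype. Among the members this held for Tbx20, with log2 ratios of Cripto KO over WT of -0.22 in F/A and 0.55 in serum/LIF, the latter from 6 and 5 counts with an interval of the ratio from 0.325 to 5.29. Among related genes, Myl4 had 2.65 in F/A and -1.30 in serum/LIF. Hapln3, a relative of Hapln1, had 2.28 and -1.47, and Lefty2 had -1.31 and 1.57.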

How the results depend on the processing

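The ratios of the 10 members and their calls were recomputed in the 4 comparisons with other scalings and filters, 352 values in all. Other thresholds were applied only to the numbers of members called. Leaving out the filter on low values, a filter at a mean of 50 raw counts and the removal of the actins leave each remaining value as it was. Those values could not change, so these settings did not test the calls. At a fold of 2 with the counting interval, 0 calls were lost or gained, and 0 called values changed sign. Of the values not called, 5 changed sign, all between the genotypes in serum/LIF. The log2 ratio of Isl1 went from 0.13 to -0.06 with total-count scaling, -0.05 with TMM and -0.04 with DESeq2 size factors, and that of Acta2 from 0.16 to -0.02 with total-count scaling and -0.0024 with TMM. Counts moved under 2 alternatives. With a fold of at least 3, 5 members in place of 8 were called between the F/A genotypes, and with the fold threshold alone, without the counting interval, 2 members (Hand1 and Nkx2-5) in place of 0 were called in serum/LIF. Adding 5 to every value moved the median log2 ratio of F/A over serum/LIF from 5.75 to 4.41 in WT and from 6.89 to 6.32 in Cripto KO. Without the actins Actc1 and Acta2, a choice made after seeing the data, 6 of 8 members were called between the F/A genotypes with a median of 1.84. No paired analysis was possible because each group had 1 library, and no replicate could be left out. Depth limits the serum/LIF values, where 8 members had at most 10 counts.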
